A study of Mus musculus with 6 samples.

Results

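The heat shock proteins and J-domain chaperones were described from Affymetrix arrays of mouse muscle RNA, where sets of short oligonucleotide probes (probe sets) read the transcripts. A gene was taken as a member if its symbol in the platform annotation starts with Hsp or Dnaj and a probe set carries that symbol alone. Hspg2, a basement membrane proteoglycan, and Hspbap1, which share only the letters, were left out, as were pseudogenes. This gave 61 genes read by 122 probe sets, out of 12393 genes and 22626 probe sets. Of the 61 genes, 23 were Hsp genes and 38 were Dnaj genes. By the place of their protein, 38 were put in the cytosol and nucleus, 8 in the endoplasmic reticulum (ER) and 7 in the mitochondrion, and 8 were left unplaced. RefSeq lists 73 protein-coding genes with such symbols, and 12 of them, Hsp90ab1, Hspb6 and Hspa13 among them, were not analysed here.

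All mice were wild-type C57BL/6. The labels give their age as 1 month, while the methods call them adult. For 3 arrays the muscle was injected with an adeno-associated virus (AAV) for murine TFEB (Tcfeb), and for 3 control arrays with an AAV for green fluorescent protein (GFP). Per the study's methods the vector was AAV2.1 with a CMV promoter, which is not restricted to muscle fibres, and the sources used here do not name the muscle put on the arrays. The labels number the arrays as biological replicates 1 to 3 in each group, and each was taken here to be 1 mouse. Each value below is the log2 signal of 1 array, and replicates are numbered as in the labels.

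Chaperones bind unfolded or partly folded proteins and let them fold, be held or be passed on for degradation. HSP70 proteins do so in cycles of ATP hydrolysis that J-domain proteins, the products of the Dnaj genes, start on a chosen client and that nucleotide exchange factors such as the HSP110 proteins end. HSP90 acts later, on kinases, steroid receptors and, in muscle, on myosin. Small heat shock proteins hold proteins without ATP, and several of them are abundant in muscle, where they sit on the sarcomere. The inducible cytosolic genes are known targets of the heat shock factor HSF1, the ER genes are known targets of the unfolded protein response, and HSP60 with its lid HSP10 folds proteins inside mitochondria. TFEB is a basic helix-loop-helix factor known for lysosomal and autophagy genes, and the comparison asks which transcripts differ in muscle that received it.

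Of the whole series, 4 facts touch these genes. The probe set of Tfeb itself was lower on the arrays labelled TFEB, with log2 values of 7.92, 7.68 and 7.61 against 8.49, 8.47 and 8.58 in the GFP controls (log2 fold change -0.77 ± 0.097 SE, limma adjusted p = 0.0024). This is opposite to what delivery would add. The sources used here do not place this probe set inside or outside the delivered cDNA. It therefore checks nothing, and every direction below rests on the labels. GFP control replicate 2 stood apart, differing over 2-fold from GFP replicates 1 and 3 at 844 and 725 probe sets, where those other controls differed from each other at 87 and pairs of TFEB arrays at 45 to 101. Cell type markers moved with the group too. As log2 of their summed signal, 12 regenerating muscle genes ran from 12.1 to 12.3 in GFP control and 14.4 to 14.6 in TFEB (10 of 12 rose), 10 fibroblast genes from 13.7 to 13.9 and 14.7 to 15.1 (6 rose), 8 endothelial genes from 10.4 to 10.6 and 11.3 to 11.4 (5 rose), 13 macrophage genes from 11.7 to 13.8 and 13.1 to 13.9 (1 rose), 11 slow fibre genes from 15.1 to 15.5 and 15.5 to 15.8 (2 rose), and 8 proliferation genes from 9.999 to 10.722 and 10.5 to 10.8 (1 rose). In every gene of the macrophage and proliferation lists the highest control was GFP replicate 2. Ptprc, for example, read 5.93, 10.26 and 6.21 in GFP control and 8.72, 9.31 and 9.39 in TFEB. The 12 fast fibre genes, which mark the labelled tissue, stayed bright on every array, at 17.66 to 17.67 in GFP control and 17.62 to 17.64 in TFEB, and 0 passed. No list held a marker at 0. The 3′ minus 5′ difference of the beta-actin control probe sets, a sign of RNA degradation, was 0.037 to 0.077 in GFP control and 0.22 to 0.34 in TFEB. For Gapdh it was -0.071 to -0.061 in GFP control and -0.038 to 0.053 in TFEB, a smaller gap. The part of the markers and of RNA quality in the results below was not tested. In whole muscle, fewer cells of a type and less RNA per cell cannot be told apart.

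The chaperone genes did not move as a block. A gene was called at an adjusted p under 0.05 and a change of at least 1.5-fold, and 10 of the 61 members were called, 5 higher and 5 lower in TFEB. Over all 12393 genes 13.5% were called, 8.62% as higher and 4.9% as lower, so that the members' 16.4% was near the background. By the adjusted p alone 31 members differed, 14 higher and 17 lower, which is 50.8% against 33.6% of all genes (16.8% higher and 16.8% lower). The values of the groups did not overlap for 38 members (62.3%), against 51.1% of all genes. The median log2 fold change was -0.01 over the members and -0.05 over all genes, and the median size of a change was 0.28 against 0.23. Counted by probe set, 23 of 122 passed, or 18.9% against 13.6% of all probe sets.

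All 10 called genes are cytosolic or nuclear. They made up 10 of the 38 genes of that class (26.3%), where 13.5% of all genes were called. In the ER 0 of 8 genes were called, in the mitochondrion 0 of 7, and 0 of 8 unplaced genes. Other settings called genes outside that class. With the mean of a gene's probe sets, 1 ER member and 2 unplaced members were called lower. Without GFP control replicate 2, 2 ER members were called higher. In 4 other settings 1 ER member was called higher. These were arrays shifted to the fast fibre genes, repeated quantile normalization, array weights, and leaving out TFEB replicate 2. With the fast fibre shift, and without GFP control replicate 1 or 3, 1 unplaced member was called higher. The difference between the classes was not tested. Their median log2 fold changes were -0.08 in the cytosol and nucleus, 0.18 in the ER and -0.08 in the mitochondrion. In the cytosol and nucleus 9 genes were higher and 13 lower by the adjusted p alone, in the ER 4 and 1, and in the mitochondrion 0 and 2. These are 57.9%, 62.5% and 28.6% of the classes, against 33.6% of all genes.

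**Figure D1:**
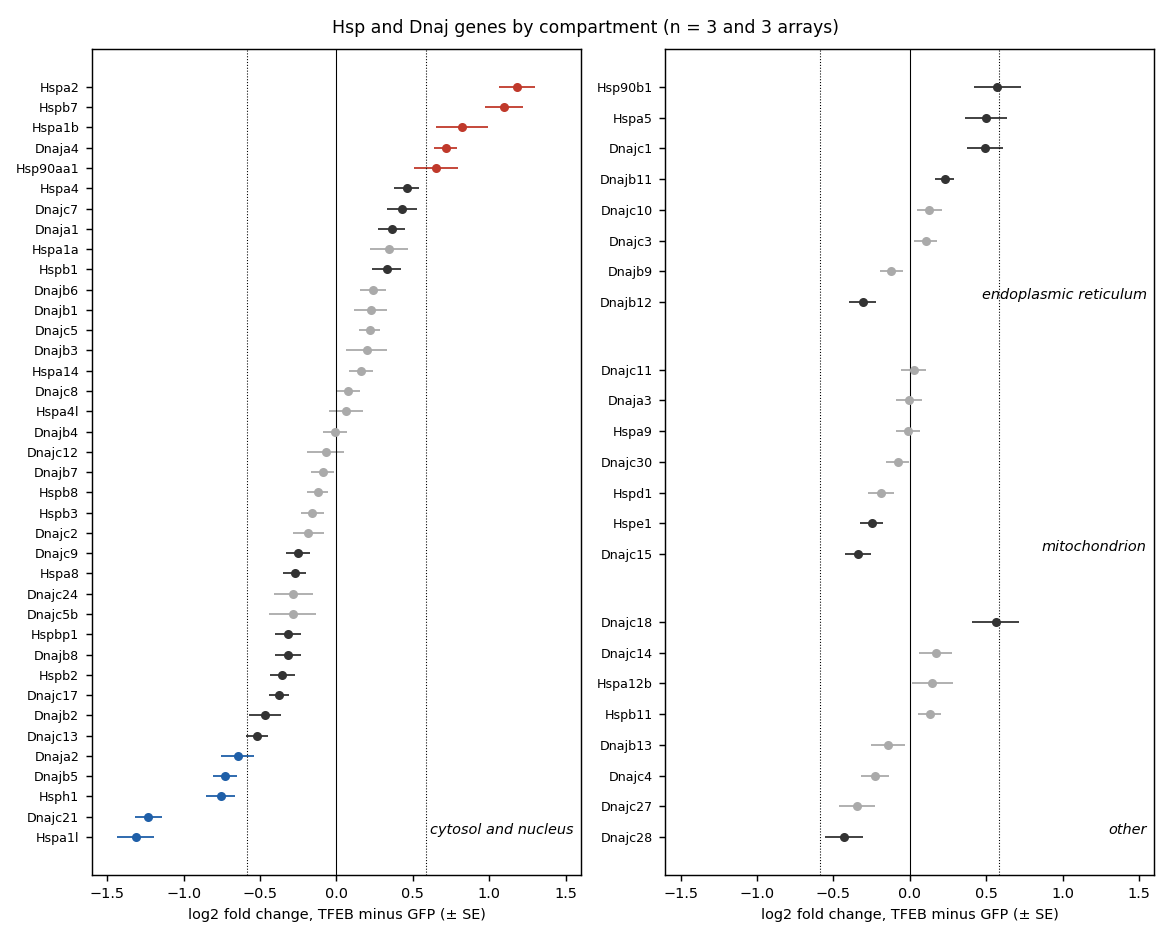
Log2 fold change of each of the 61 members, TFEB minus GFP, with its SE (n = 3 and 3 arrays), in the cytosol and nucleus (left) and the other classes (right). Red and blue points passed the threshold as higher and lower, dark grey points passed the adjusted p alone, light grey points did not, and dotted lines mark 1.5-fold. The 5 risers and 5 fallers all lie in the left panel, and ER genes lie between -0.31 and 0.57.

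Among the HSP70 and HSP110 genes, 4 of 12 were called, 2 in each direction. Hspa2, an HSP70 form best known from male germ cells, had log2 values of 6.86, 6.68 and 6.79 in GFP control and 8.16, 7.75 and 7.97 in TFEB. Every TFEB array lay above every control, and the gene rose 2.27-fold (a difference of 1.18 ± 0.12 SE in log2, adjusted p = 0.0013). Hspa1b, a strictly stress-inducible HSP70, read 7.51, 6.94 and 7.17 in GFP control and 8.16, 7.79 and 8.13 in TFEB. Its groups did not overlap either, but GFP control replicate 1 came near the lowest TFEB array, and the rise of 1.77-fold was less sure (0.82 ± 0.17 SE, adjusted p = 0.013).

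The fallers of this family were Hspa1l and Hsph1. Hspa1l, a constitutive HSP70 also known best from testis, read 7.59, 7.69 and 7.85 in GFP control and 6.52, 6.51 and 6.16 in TFEB. It fell 2.49-fold (log2 fold change -1.31 ± 0.12 SE, adjusted p = 0.0011), the largest fall of any member, with all TFEB arrays over 1 log2 unit under the lowest control. Hsph1, the HSP110 that removes ADP from HSP70, read 9.92, 10.18 and 10.17 in GFP control and 9.35, 9.40 and 9.25 in TFEB. It fell 1.69-fold (-0.76 ± 0.096 SE, adjusted p = 0.0025), again with no overlap. Hspa4, another HSP110 protein, went the other way below the fold limit, at 9.51, 9.46 and 9.48 against 10.01, 9.81 and 10.01 (0.46 ± 0.081 SE, adjusted p = 0.0072). Its other probe sets gave -0.19 (adjusted p = 0.26) and 0.04 (adjusted p = 0.88), and the mean of all 3 missed the threshold (0.10, adjusted p = 0.46).

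Hspa8, which encodes the constitutive HSC70 of every cell and of chaperone-mediated autophagy, read 12.68, 12.88 and 12.79 in GFP control and 12.52, 12.53 and 12.48 in TFEB. It was lower by the adjusted p alone (-0.27 ± 0.076 SE, adjusted p = 0.034), and the groups did not overlap. Its other 3 probe sets missed the threshold, the next brightest at 0.00 (adjusted p = 0.99), and so did the mean of all 4 (-0.08, adjusted p = 0.62). Hspa14 (0.16, adjusted p = 0.15) and Hspa4l (0.06, adjusted p = 0.68) missed the threshold.

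Hspa1a and Hspa1b are neighbouring copies on chromosome 17 that encode nearly the same protein, and Hspa1l lies head to head with Hspa1a, on the opposite strand, with their starts 547 bases apart. The array gave the copies different values. Hspa1a read 6.63, 6.42 and 6.70 in GFP control and 7.15, 6.78 and 6.85 in TFEB, which do not overlap but missed the threshold (0.34 ± 0.13 SE, adjusted p = 0.078), whereas all 3 probe sets of Hspa1b passed (0.82, 0.78 and 0.75). Probe sets of near-identical copies can bind each other's transcripts, so the split of the signal between Hspa1a and Hspa1b is uncertain. Hspa1l fell while its neighbours were higher. In RefSeq (GRCm38.p6) 247 of the 250 bases before the start were equal in Hspa1a and Hspa1b (98.8%). Both windows hold the heat shock element in its shortest form, GAANNTTC, at -104 to -97. It is shown for these copies because it is the site HSF1 is known to bind, and Hsph1 is shown beside them because it fell and holds the same units turned, TTCNNGAA, at -33 to -26. Each is written 5′ to 3′ on the gene's own strand with the matched letters in capitals.
Hspa1b, chr17:34959298-34959358, minus strand: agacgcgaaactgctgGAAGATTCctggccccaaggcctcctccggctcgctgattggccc
Hspa1a, chr17:34972216-34972276, minus strand: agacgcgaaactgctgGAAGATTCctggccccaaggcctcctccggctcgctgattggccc
Hsph1, chr5:149636337-149636406, minus strand: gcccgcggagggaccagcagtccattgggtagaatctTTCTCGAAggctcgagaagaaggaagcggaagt

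The shown stretches of Hspa1b and Hspa1a are the same over all 61 bases. Promoters of 50 of the 61 members were found in the RefSeq table, as 64 windows of 250 bases. GAANNTTC, searched on both strands, was in 11 of them (10 genes) and in 6.69% of all 32851 windows. TTCNNGAA was in 8 (6 genes) and in 7.17% of all windows. Both letter strings read the same on either strand, and they overlap in the longer form GAANNTTCNNGAA. The 10 genes with GAANNTTC are Hspa1b, Hspa1a, Dnaja4, Hspb1, Dnaja1, Dnajb6, Dnajc27, Hspb3, Hspd1 and Hspe1. Values in TFEB were lower for Dnajc27 (-0.34), Hspb3 (-0.16), Hspd1 (-0.19) and Hspe1 (-0.25) and higher for the others. The E-box CACGTG, the core that basic helix-loop-helix factors such as TFEB bind, was in 4 windows (Hsph1, Hspd1, Dnajc1 and Dnajb9) and in 6.02% of all windows. Of those genes Hsph1 fell, Dnajc1 was higher by the adjusted p alone, and Hspd1 and Dnajb9 missed the threshold. A match is only a run of letters in these windows.

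Both measured HSP90 genes were higher by the adjusted p, and Hsp90aa1 was called. Hsp90aa1, the inducible cytosolic HSP90 that also folds myosin, read 9.58, 10.06 and 9.59 in GFP control and 10.47, 10.28 and 10.44 in TFEB. The groups did not overlap, GFP control replicate 2 was the highest control, and the gene rose 1.57-fold (0.65 ± 0.14 SE, adjusted p = 0.016). Leaving out single arrays ended this call 4 times of 6, without GFP replicate 1 (adjusted p = 0.053), GFP replicate 3 (0.059), TFEB replicate 1 (0.054) or TFEB replicate 3 (0.061). Its ER counterpart Hsp90b1 is given with the ER genes.

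The small heat shock proteins of muscle did not share a direction. Hspb7, a small heat shock protein of heart and skeletal muscle known to bind filamin C, read 10.27, 10.51 and 10.76 in GFP control and 11.61, 11.61 and 11.61 in TFEB. The TFEB arrays were nearly equal (SD 0.0042) and the gene rose 2.14-fold by this probe set (1.095 ± 0.13 SE, adjusted p = 0.0018). Its other probe sets gave 0.34 (adjusted p = 0.33) and 0.01 (adjusted p = 0.98), and their mean missed the threshold (0.48, adjusted p = 0.075), so the rise of Hspb7 rests on 1 of its 3 probe sets. Hspb1, the HSP27 of actin filaments, was higher by the adjusted p alone, at 11.44, 11.74 and 11.63 against 11.90, 11.97 and 11.94 (0.33 ± 0.092 SE, adjusted p = 0.035). Hspb2, which binds the myotonic dystrophy kinase, was lower in the same way, at 9.90, 9.88 and 10.04 against 9.69, 9.54 and 9.53 (-0.35 ± 0.083 SE, adjusted p = 0.019).

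Hspb8, which works with the co-chaperone BAG3 to send damaged filamin to autophagy, read 12.07, 12.17 and 12.08 in GFP control and 12.05, 11.92 and 11.98 in TFEB. It missed the threshold (-0.12 ± 0.071 SE, adjusted p = 0.22), while its second probe set was lower by the adjusted p (-0.53 ± 0.095 SE, adjusted p = 0.0078). Bag3 itself was higher by the adjusted p alone, at 10.21, 10.29 and 10.25 against 10.74, 10.54 and 10.58 (0.37 ± 0.078 SE, adjusted p = 0.014). Hspb3, the partner of HSPB2, missed the threshold (-0.16, adjusted p = 0.17).

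**Figure D2:**
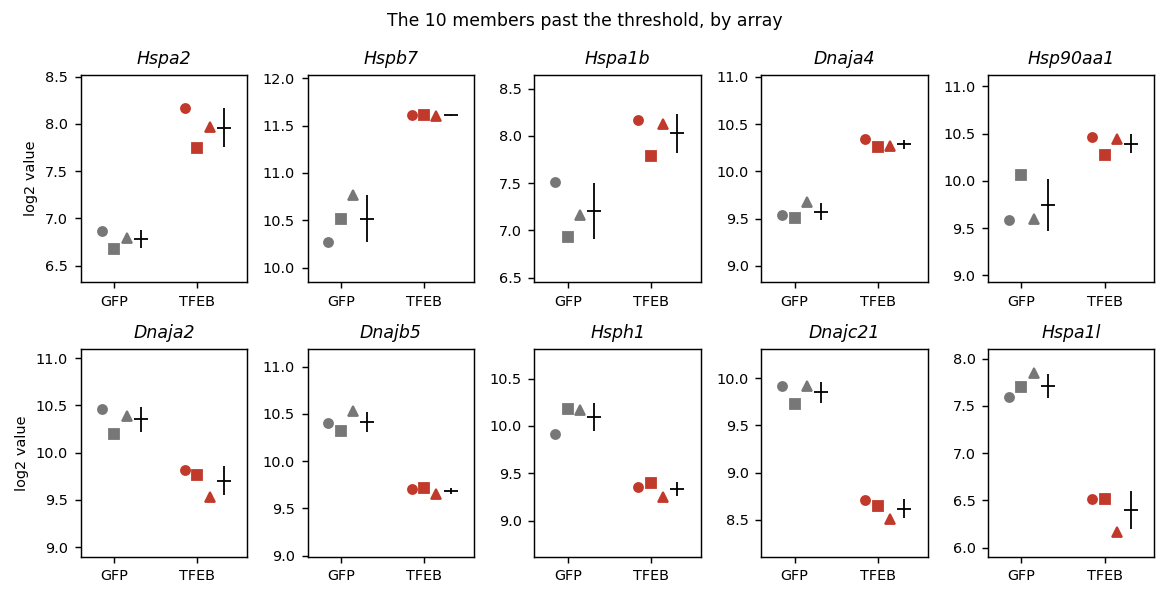
Log2 value of the 10 called members on each array (grey, GFP control; red, TFEB; circle, square and triangle for replicates 1, 2 and 3), with mean and SD at the right of each group; every panel spans the same 2.2 log2 units. The groups do not overlap in any panel, and Hsp90aa1 and Hspa1b have the smallest gaps.

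J-domain genes held the clearest fall. Dnajc21, whose protein acts in the making of the large ribosomal subunit, read 9.91, 9.72 and 9.91 in GFP control and 8.71, 8.65 and 8.51 in TFEB. It fell 2.35-fold (-1.23 ± 0.091 SE, adjusted p = 0.00059), the lowest adjusted p of all members. Among the 22 DNAJC genes it was the only one called.

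Of the 4 DNAJA genes, which are the closest relatives of bacterial DnaJ, Dnaja4 and Dnaja2 were called in opposite directions. Dnaja4 read 9.54, 9.51 and 9.67 in GFP control and 10.34, 10.25 and 10.27 in TFEB, a rise of 1.64-fold (0.72 ± 0.075 SE, adjusted p = 0.0014). Dnaja2, a main J-domain partner of HSC70, read 10.46, 10.20 and 10.39 in GFP control and 9.82, 9.76 and 9.53 in TFEB, a fall of 1.57-fold (-0.65 ± 0.11 SE, adjusted p = 0.0062). Neither pair of groups overlapped. Dnaja1 was higher by the adjusted p alone (8.95, 9.18 and 9.16 against 9.37, 9.48 and 9.53, a difference of 0.36 ± 0.091 SE, adjusted p = 0.025). Its second probe set missed the threshold (0.13, adjusted p = 0.22).

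Of the 12 DNAJB genes only Dnajb5 was called. It read 10.40, 10.32 and 10.53 in GFP control and 9.70, 9.71 and 9.65 in TFEB, a fall of 1.66-fold (-0.73 ± 0.079 SE, adjusted p = 0.0016) with no overlap. Dnajb1, the HSP40 that starts the HSP70 cycle in the heat shock response, missed the threshold (0.22 ± 0.11 SE, adjusted p = 0.16). Dnajb6, whose mutations cause a limb-girdle muscular dystrophy, missed it too (0.24, adjusted p = 0.065), as did Dnajb4 (9.79, 9.85 and 9.90 against 9.93, 9.76 and 9.81, adjusted p = 0.93). The second probe set of Dnajb1 gave -0.28 (adjusted p = 0.083), and that of Dnajb4 was lower by the adjusted p alone (-0.29, adjusted p = 0.031). Dnajb2, a J-domain protein that binds ubiquitin, was lower by the adjusted p alone (8.85, 8.95 and 9.01 against 8.65, 8.46 and 8.30, a difference of -0.47 ± 0.11 SE, adjusted p = 0.018), and so was the testis gene Dnajb8 (-0.32, adjusted p = 0.030).

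Other cytosolic members past the adjusted p alone were mostly lower. Dnajc13, which acts in endosomal sorting, read 8.47, 8.38 and 8.39 in GFP control and 7.82, 7.96 and 7.89 in TFEB (-0.52 ± 0.072 SE, adjusted p = 0.0034). Dnajc17 (-0.38, adjusted p = 0.0070), the histone chaperone gene Dnajc9 (-0.25, adjusted p = 0.047) and Hspbp1, an HSP70 exchange factor (-0.31, adjusted p = 0.031), were lower as well. Dnajc7, which binds both HSP70 and HSP90, was the exception, at 9.06, 9.37 and 9.32 against 9.71, 9.70 and 9.64 (0.43 ± 0.098 SE, adjusted p = 0.017). Dnajc5, the cysteine string protein of synaptic vesicles (0.22, adjusted p = 0.052), and Dnajc8 (0.08, adjusted p = 0.45) missed it.

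The partners of these proteins were read from a list of 31 cytosolic co-chaperones and heat shock factors, of which 26 were measured and 3 were called. Fkbp4 and Fkbp5 encode the immunophilins FKBP52 and FKBP51, which join HSP90 on steroid receptors, and both fell. Fkbp5 read 8.62, 8.37 and 8.59 in GFP control and 7.65, 7.84 and 7.78 in TFEB (-0.77 ± 0.096 SE, adjusted p = 0.0024), and Fkbp4 read 9.97, 9.90 and 10.03 against 9.22, 9.35 and 9.17 (-0.72 ± 0.079 SE, adjusted p = 0.0016). Cdc37l1, a relative of the HSP90 co-chaperone CDC37, rose, at 8.05, 7.97 and 8.18 against 8.74, 8.65 and 8.67 (0.62 ± 0.080 SE, adjusted p = 0.0026). With the mean of the gene's probe sets Cdc37l1 lost the call (0.16, adjusted p = 0.12), and Fkbp4 came under the fold limit (-0.43, adjusted p = 0.0077). Cdc37l1 came under that limit without GFP control replicate 2 too (0.57, adjusted p = 0.0025). Hsf1 was not analysed here. By the adjusted p alone 3 were higher and 7 lower, and the median log2 fold change was -0.02. That is 38.5% against 33.6% of all genes, and the called are 11.5% against 13.5%. Of 15 measured genes of the CCT ring and prefoldin, which fold actin and tubulin, 0 were called. An unadjusted p under 0.05 was reached by 7 of these 15, and by 36 of the 61 members. Its share over all genes was not counted. By limma's adjusted p alone 1 gene of the CCT and prefoldin list was higher, Cct3 (0.33). In the same list 2 were lower, Pfdn6 (-0.44) and Vbp1 (-0.36), with a median of -0.13. That is 20% of this list, against 33.6% of all genes.

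Of the 8 ER members, 4 were higher in TFEB and 1 lower by the adjusted p alone, 3 missed it, and 0 were called. Hspa5, the ER HSP70 known as BiP, read 10.41, 10.72 and 10.32 in GFP control and 10.93, 10.83 and 11.18 in TFEB (1.41-fold, 0.50 ± 0.14 SE, adjusted p = 0.033). Hsp90b1, the ER HSP90 known as GRP94, read 9.85, 10.38 and 9.80 in GFP control and 10.58, 10.54 and 10.63 in TFEB (1.49-fold, 0.57 ± 0.16 SE, adjusted p = 0.031). Its second probe set lay on the other side of 0 (-0.21, adjusted p = 0.19). Across the alternatives its log2 fold change ran from 0.18, with the mean of its probe sets, to 0.76, without GFP control replicate 2. In both genes GFP control replicate 2 was the highest control and came within 0.2 log2 units of the lowest TFEB array, while replicates 1 and 3 lay together below it.

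The BiP partners followed in part. Dnajb11, the ERdj3 of the ER lumen, read 8.83, 8.87 and 8.85 against 9.10, 9.06 and 9.06, a small difference between tight groups (0.23 ± 0.062 SE, adjusted p = 0.033). Dnajc1, a membrane J-domain protein at the ribosome, read 7.59, 7.58 and 7.57 against 8.18, 7.82 and 8.22 (0.49 ± 0.12 SE, adjusted p = 0.020). Dnajb12, an ER membrane protein of degradation, was lower, at 8.11, 7.92 and 8.14 against 7.83, 7.66 and 7.76 (-0.31 ± 0.088 SE, adjusted p = 0.037). The stress-induced Dnajb9 (9.99, 9.97 and 10.06 against 9.94, 9.79 and 9.92, adjusted p = 0.245), the reductase Dnajc10 (8.27, 8.25 and 8.28 against 8.27, 8.40 and 8.51, adjusted p = 0.256) and Dnajc3 (8.42, 8.45 and 8.33 against 8.50, 8.42 and 8.59, adjusted p = 0.333) missed the threshold.

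Hspa5 and Hsp90b1 are shown because their promoters hold the ER stress response element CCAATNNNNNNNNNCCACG, which the factors of the unfolded protein response are known to bind. Searched on both strands it was in 3 of the 64 member windows, those of Hspa5, Hsp90b1 and Dnajc3, and in 0.113% of all windows. Hsp90b1 holds it on each strand. The stretches are from RefSeq (GRCm38.p6), 5′ to 3′ on the gene's strand, with the matches in capitals.
Hspa5, chr2:34772000-34772059, plus strand: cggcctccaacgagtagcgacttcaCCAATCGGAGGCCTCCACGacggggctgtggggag
Hsp90b1, chr10:86705525-86705664, minus strand: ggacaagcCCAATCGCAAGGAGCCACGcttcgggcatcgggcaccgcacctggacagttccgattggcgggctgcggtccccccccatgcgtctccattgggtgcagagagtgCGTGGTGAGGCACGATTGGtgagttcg

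Other ER folding genes were read from a list of 34 genes, of which 31 were measured. In TFEB 11 were higher and 3 lower by the adjusted p alone, with a median log2 fold change of 0.25, and 2 were called. By the adjusted p alone that is 45.2% against 33.6% of all genes, and the called are 6.45% against 13.5%. Serpinh1, the collagen chaperone HSP47, rose 2.00-fold, from 8.99, 9.01 and 9.14 to 9.88, 10.25 and 10.0008 (1.00 ± 0.11 SE, adjusted p = 0.0016). The summed signal of the 10 fibroblast genes moved with it, from 13.7 to 13.9 in GFP control to 14.7 to 15.1 in TFEB, and its part in the rise was not tested. Eif2ak3, the ER stress kinase PERK, rose from 6.54, 6.64 and 6.31 to 7.09, 7.18 and 7.38 (0.72 ± 0.12 SE, adjusted p = 0.0054), but the mean of its probe sets missed the threshold (0.13, adjusted p = 0.23). The lectin chaperones were higher by the adjusted p alone, Calr at 10.87, 11.34 and 10.98 against 11.46, 11.50 and 11.72 (0.50 ± 0.14 SE, adjusted p = 0.036) and Canx at 9.86, 10.05 and 9.79 against 10.39, 10.34 and 10.38 (0.47 ± 0.086 SE, adjusted p = 0.0082). Genes that the unfolded protein response is known to induce were mixed. Pdia6 (0.45, adjusted p = 0.016) and Creld2 (0.52, adjusted p = 0.047) were higher by the adjusted p alone, and Manf (0.57, adjusted p = 0.0502) and Hyou1 (0.33, adjusted p = 0.061) missed it. Herpud1, a gene of ER-associated degradation, was lower by the adjusted p alone, at 10.48, 10.36 and 10.39 against 9.83, 9.89 and 9.84 (-0.56 ± 0.069 SE, adjusted p = 0.0023), and Xbp1 (-0.02, adjusted p = 0.89), Ddit3 (-0.06, adjusted p = 0.69) and Sdf2l1 (-0.14, adjusted p = 0.49) missed the threshold.

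The GFP array with the most differing probe sets, replicate 2, was the highest control in 23 of the 31 ER folding genes (74.2%) and in 4 of the 8 ER members (50%), against 29.4% of all genes and 0 of the 7 mitochondrial members. Its excess over the mean of the other controls had a median of 0.21 over the ER folding genes and of -0.05 over all genes, and was 0.55 for Hsp90b1 and 0.36 for Hspa5. The same array was the highest control for every macrophage and proliferation marker, and the part of these cells was not tested. Without this array Hsp90b1 (0.76 ± 0.080 SE, adjusted p = 0.00067) and Hspa5 (0.62 ± 0.12 SE, adjusted p = 0.0066) passed the threshold, which brought the members to 7 higher and 5 lower. In the list of ER folding genes 7 were then called higher in place of 2, and the median was 0.41 in place of 0.25. In the same fit the cytosolic members stayed at 5 higher and 5 lower. The mitochondrial partner list stayed at 1 higher and the CCT and prefoldin list at 0, and the co-chaperone list went from 1 higher to 0. The share of all genes called in this fit was not counted, so these counts have no background beside them. Leaving out GFP replicate 1, GFP replicate 3, TFEB replicate 1 or TFEB replicate 3 in turn left 0 of the 8 ER members under an adjusted p of 0.05 by limma. In each of these fits 5 of the 8 had an unadjusted p under 0.05, as did 32 to 37 of the 61 members. By the adjusted p the 61 members went from 14 higher and 17 lower to 4 to 7 higher and 7 to 12 lower in these fits. The shares of all genes in these fits were not counted. With the methods' t-test, adjusted in the same way, 1 ER member stayed under 0.05.

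**Figure D3:**
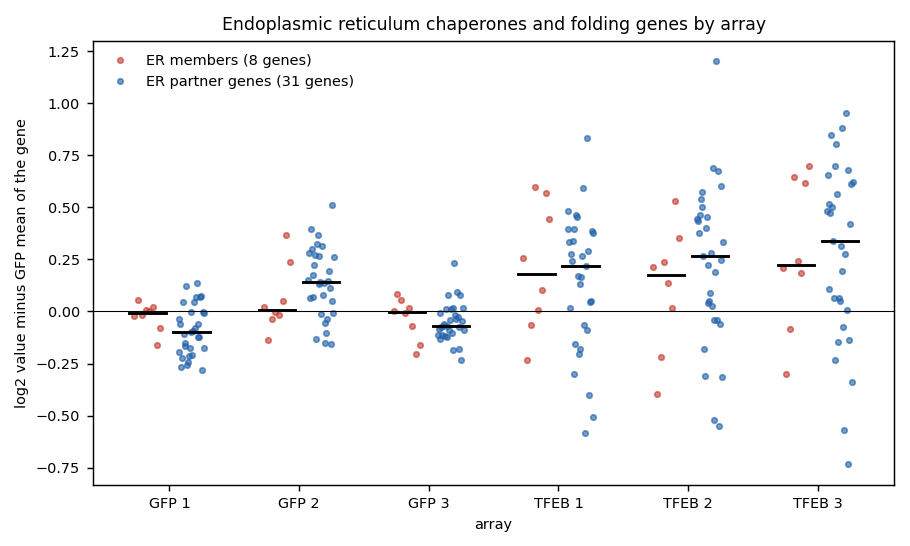
Log2 value minus the gene's GFP mean on each array for the 8 ER members (red) and the 31 other ER folding genes (blue), with black bars at the medians. The medians of the folding genes were -0.10, 0.14 and -0.07 on the GFP arrays and 0.22, 0.27 and 0.34 on the TFEB arrays, so GFP control replicate 2 lies nearest the TFEB arrays.

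The mitochondrial chaperones differed by -0.34 to 0.02 in log2, with 0 of 7 called and 2 lower by the adjusted p alone. Hspd1, the HSP60 ring, read 11.03, 11.10 and 11.29 in GFP control and 10.95, 10.99 and 10.92 in TFEB, without overlap, and missed the threshold (-0.19 ± 0.087 SE, adjusted p = 0.14). Hspe1, its HSP10 lid, read 10.48, 10.48 and 10.65 against 10.30, 10.28 and 10.29 and was lower by the adjusted p alone (-0.25 ± 0.074 SE, adjusted p = 0.042). Hspa9, the mitochondrial HSP70 mortalin, read 11.15, 11.17 and 11.25 against 11.23, 11.25 and 11.06, so that the groups overlapped (-0.01 ± 0.079 SE, adjusted p = 0.92). Its J-domain partner Dnaja3 did not differ past the threshold either (-0.00 ± 0.086 SE, adjusted p = 0.97), whereas a second probe set of that gene was lower by the adjusted p alone (-0.48, adjusted p = 0.031). Dnajc15, a J-domain protein of the import motor, was lower by the adjusted p alone, at 10.66, 10.50 and 10.60 against 10.36, 10.26 and 10.13 (-0.34 ± 0.087 SE, adjusted p = 0.027). Dnajc11 (0.02, adjusted p = 0.84) and Dnajc30 (-0.08, adjusted p = 0.45) missed the threshold.

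Hspd1 and Hspe1 lie head to head on chromosome 1 and share the stretch between their starts. The promoter of Hspe1 is shown because it holds the full heat shock element GAANNTTCNNGAA, which was in 4 of the 64 member windows (Hspd1, Hspe1 and Dnajb6) and in 0.466% of all windows. It is matched on both strands at -89 to -72, in capitals, from RefSeq (GRCm38.p6), 5′ to 3′ on the plus strand.
Hspe1, chr1:55088048-55088147, plus strand: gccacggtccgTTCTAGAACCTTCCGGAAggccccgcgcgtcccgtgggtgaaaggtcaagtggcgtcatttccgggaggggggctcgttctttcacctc

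Of the 3 genes with this full element none was called, and Hspe1 was lower by the adjusted p alone. Over all genes 13.5% were called, so a list this short says nothing about the element.

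Of 17 other measured genes of mitochondrial protein folding, import and proteolysis, 5 were higher and 4 lower by the adjusted p alone, with a median of -0.08. By the adjusted p alone that is 52.9% against 33.6% of all genes. Htra2, a protease of the space between the mitochondrial membranes, was the only one called (5.88% of the list, against 13.5% of all genes). It read 7.22, 7.34 and 7.18 in GFP control and 8.07, 8.01 and 8.15 in TFEB (1.77-fold, 0.83 ± 0.077 SE, adjusted p = 0.0011). Timm44, which tethers mortalin to the import channel, was higher by the adjusted p alone (0.55), whereas the mitochondrial HSP90 gene Trap1 (-0.50) and the protease subunit gene Clpp (-0.48) were lower in the same way.

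The 8 unplaced members were Dnajb13, Dnajc4, Dnajc14, Dnajc18, Dnajc27, Dnajc28, Hspa12b and Hspb11, and 0 of them were called. By the adjusted p alone Dnajc18 was higher, at 6.78, 6.28 and 6.78 against 7.16, 7.06 and 7.30 (1.48-fold, 0.56 ± 0.15 SE, adjusted p = 0.031), and Dnajc28 was lower, at 8.18, 7.94 and 8.33 against 7.81, 7.80 and 7.54 (-0.43 ± 0.12 SE, adjusted p = 0.038). The second probe set of Dnajc18 gave -0.02 (adjusted p = 0.89). The sperm flagellar gene Dnajb13 (-0.14, adjusted p = 0.36) and the endothelial HSP70-like gene Hspa12b (0.15, adjusted p = 0.43) missed the threshold. The endothelial marker genes rose in 5 of 8 cases in the same arrays.

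The probe sets of a gene did not always agree. Of the 36 members with several, 15 had log2 fold changes of both signs, but 0 had probe sets past limma's adjusted p in opposite directions. Of the 7 called genes with several probe sets, all probe sets passed in 5, Dnaja2 (-0.65 and -1.14), Dnajb5 (-0.73, -0.72 and -1.16), Hsp90aa1 (0.65, 0.69 and 0.64), Hspa1b and Hsph1 (-0.76 and -1.095). In Dnaja4 the others were higher below the fold limit (0.55 and 0.41), and Hspb7 was described above.

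A probe set other than the brightest passed in 5 genes that were not called. These were Dnajb12 (-1.20 against -0.31 by its brightest), Dnajc28 (-0.87), Dnajc27 (-0.83), Hspa9 (-0.79 against -0.01) and Dnajc5 (0.62). The brightest probe sets of mortalin gave -0.01 and 0.09 and its dimmer ones -0.79 and -0.50. Hsp90b1 had a second probe set on the other side of 0 (-0.21, adjusted p = 0.19), and Hspa5 a second one at 0.30 (adjusted p = 0.085). The second probe set of Hspe1 was lower too (-0.53, adjusted p = 0.0049). Of the 5 probe sets of Dnajc3, 3 were lower by the adjusted p (-0.50, -0.39 and -0.50), while the brightest over all arrays gave 0.10. The 3′ to 5′ difference given for beta-actin differed between the groups in the same arrays, and that for Gapdh differed less. Their part in the disagreement was not tested.

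**Figure D4:**
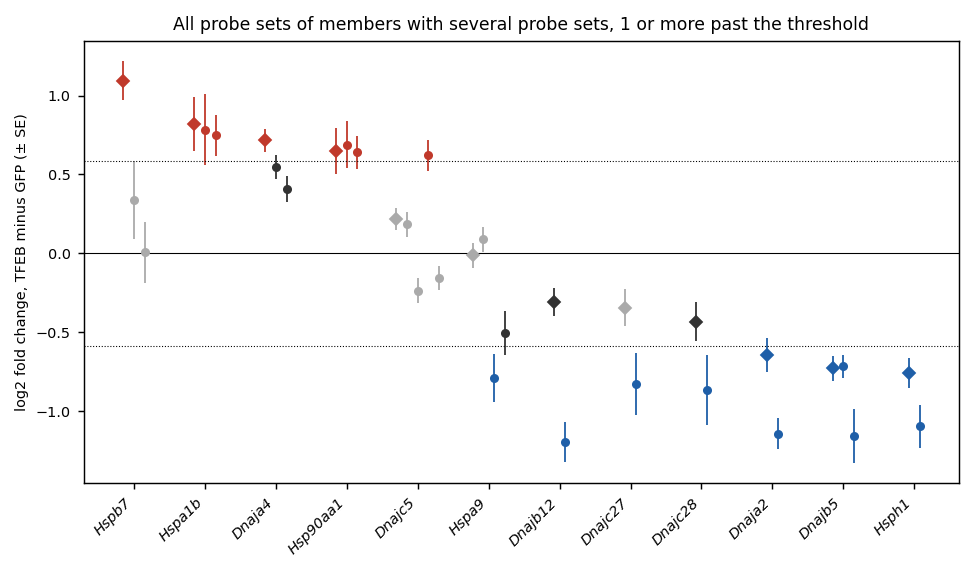
Log2 fold change, TFEB minus GFP, with SE, of every probe set of the members that have several and of which 1 or more passed the threshold. Diamonds are the brightest probe set of a gene, circles the others, red and blue passed as higher and lower, and dotted lines mark 1.5-fold. The probe sets of Hspb7 run from 0.01 to 1.095, those of Dnajb12 from -1.20 to -0.31 and those of Hspa9 from -0.79 to 0.09.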

How the data were processed

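The authors deposited 1 log2 value per probe set and array, for 3 GFP control and 3 TFEB arrays. Per the labels, the submitters' notes name the affy package and RMA, versions not stated. RMA subtracts background, sets arrays to equal distributions and summarises each probe set, so a change shared by most transcripts would be partly removed. Precision is limited by the number of arrays, which have no read depth.

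Of 22690 probe sets, 64 controls were left out. GEO's platform annotation gave 1 symbol to 20380 of the other 22626, several to 691 and none to 1555. Each of 12393 genes was read by its probe set of highest mean. A two-sided limma fit (version 3.58.1 in R 4.3.3, lmFit and eBayes) compared the groups, with Benjamini-Hochberg adjustment over 22626 probe sets. All adjusted p-values are from this fit unless another is named. The limits, an adjusted p under 0.05 and 1.5-fold, come from the legend to the gene list of the study, whose array methods were not used here. The fit was tested on simulated data. Values are TFEB minus GFP, and ± is the SE (n = 3 per group).

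The members, lists and tests were chosen with earlier results of these data known. Named were all members under an adjusted p of 0.05, the 3 brightest others per class, and partner genes past the threshold. Hspa1a, Dnajb1, Bag3, Calr, Canx, Herpud1 and others named with values past this rule were chosen after their values were seen. Promoters are RefSeq's (GRCm38.p6). Alternatives changed scaling, filter, variance model, test, probe sets per gene and arrays.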

Additional observations from a re-analysis of the deposited data

How the results depend on the processing

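Over 15 alternatives and 46 named genes, 659 of 688 values kept their side of the threshold, 17 lost it, 12 gained it and 0 called values reversed. This counts only being called or not. A gene past the adjusted p alone was counted as kept even where it lost that status. By the adjusted p alone the members, 14 higher and 17 lower, became 4 to 14 higher and 7 to 19 lower on leaving out 1 array. Hspa2, Dnajb5, Dnajc21, Hspa1l and Hsph1 stayed called under every alternative run, and the other 5 called members lost the call at least once. The 5 higher members became 3 with Student's t-test and 3 with the mean of a gene's probe sets, and 3 to 7 on leaving out 1 array (7 without GFP control replicate 2, 3 without TFEB replicate 3). The 5 lower members became 8 with the mean of probe sets and 4 to 5 on leaving out 1 array. Dnaja4 (0.56) and Hspb7 (0.48) lost their calls with the mean of probe sets, Dnaja2 without TFEB replicate 3 (-0.56), Hsp90aa1 with arrays shifted to equal medians (0.58) and with the t-test (adjusted p = 0.068), and Hspa1b with the t-test (adjusted p = 0.064) and without TFEB replicate 3 (0.053). Of the partner genes, Cdc37l1 lost its call with equal medians (0.55), array weights (0.58), the mean of probe sets (0.16) and without GFP control replicate 2 (0.57), and Eif2ak3 (0.13) and Fkbp4 (-0.43) with the mean of probe sets. The 4 higher partner genes became 7 with arrays shifted to the fast fibre genes, 7 with array weights and 4 to 8 on leaving out 1 array, and the 2 lower became 4 with equal medians, 1 with the mean of probe sets and 2 to 3 on leaving out 1 array. The median of the cytosolic members (-0.08) became -0.15 with equal medians and -0.0093 with the brightness filter, and ran from -0.12 to -0.03 on leaving out 1 array. That of the ER members (0.18) became 0.11 with equal medians, 0.21 with the fast fibre scaling and 0.11 with the mean of probe sets, and ran from 0.15 to 0.20. That of the mitochondrial members (-0.08) became -0.21 with the mean of probe sets and ran from -0.12 to -0.04. The cause of these shifts was not tested.

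With the replicate number as a block the members stayed at 5 higher and 5 lower. Same-numbered arrays correlated at 0.42, 0.17 and -0.23 in their deviations from the group means. So few values cannot decide whether same-numbered samples share more than a number. The counts of called members and partner genes did not change with the block. By the adjusted p alone the block moved the members from 14 higher and 17 lower to 11 and 11, and the ER members from 4 higher and 1 lower to 1 and 1.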
